A study of Mus musculus with 2 samples.

Results

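The 10 genes described here mark the trophoblast, the lineage that builds the placenta, and were read in EpiSC, mouse epiblast stem cells, which are pluripotent and stand for the embryo proper shortly after implantation. They are Cdx2, Elf5, Tfap2c, Gata3, Plac1, Hand1, Gcm1, Tpbpa, Prl3d1 and Psg17, a list drawn up by gene name and not by any measured value. Of these, 9 were found on the array under their own symbol, with 13 probes. Tfap2c is listed there under its older name Tcfap2c and was matched through its RefSeq accession, which brought the set to 10 of 22753 genes and 14 of 39429 probes. Gcm1 had 4 probes, Prl3d1 had 2, and the other 8 genes had 1 each. Every one of these probes was printed as 1 spot on each array.

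Both samples were EpiSC, clone 1 and clone 2, each wildtype, female, of C57BL/6 background, at passage 9 and collected with trypsin, per the labels. Each clone was read on 1 one-colour Agilent array, so each line is represented by 1 clone and 1 sample. Differences between the clones therefore have no replicate check, and no p-value or standard error between them can be given. No trophoblast or placental sample was among the arrays. The series was made to compare newly derived EpiSC with EpiSC described earlier, and the question for these genes is how far markers of the extraembryonic lineage were present in the clones and whether the clones differed in them.

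The trophoblast arises from the trophectoderm, the outer layer of the blastocyst. Transcription factors such as Cdx2, Gata3, Tfap2c and Elf5 set up and maintain this layer and the trophoblast stem cells derived from it. Differentiation then splits the lineage: Gcm1 directs the syncytiotrophoblast of the labyrinth, the exchange tissue, Hand1 drives giant cells, and Tpbpa marks the spongiotrophoblast and its precursors. Giant cells secrete placental lactogens of the prolactin family, of which Prl3d1 is an early one, and the placenta also makes pregnancy-specific glycoproteins such as Psg17. Several of these factors have other sites of expression in the embryo: Gata3 and Tfap2c in surface ectoderm, Tfap2c in primordial germ cells, and Hand1 in mesoderm.

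The value of a probe is its processed signal, an intensity corrected for background by the scanner software, given with the software's own error for that spot. Levels are log2 signals minus each array's 75th percentile (819 as a signal in clone 1, and 726 in clone 2), and each difference is clone 2 minus clone 1. A probe was called detected where the software flagged its spot as well above background, and a looser flag, positive and significant, was read beside it. The negative control spots, which match no mouse transcript, had a median signal of 7.96 on the array of clone 1 (141 spots, range 6.98 to 10.5) and 7.11 on that of clone 2 (147 spots, range 6.19 to 10.1). Where the corrected signal did not rise above its error the software wrote a stand-in value near this floor, and such values have no order. Stand-ins replaced the signal of 5 of the 14 probes in clone 1 and 3 in clone 2. Probes printed 10 times per array had a median SD between spots of 0.07 log2 in clone 1 and 0.08 in clone 2 when detected. For dim detected probes, with a level below -2, it was 0.11 and 0.13.

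Most of the trophoblast genes were not detected in either clone. A gene was called detected on an array where any of its probes with a value on both arrays was. By this rule 3 of 10 genes (30.0%), Tfap2c, Gata3 and Gcm1, were detected on both arrays, against 13947 of all 22753 genes (61.3%). The other 7 were detected on neither, against 33.8% of all genes. The Gcm1 call rested on its purine-repeat probes, described below, and not on the probe placed at the gene. Read by the probe placed at the gene, Gcm1 was detected in clone 2 only, which left 2 genes detected in both clones and 7 in neither. With the looser flag 5 of 10 genes were detected in both clones, against 80.0% of all genes, Prl3d1 and Psg17 being added. A limit of the mean plus 2 SD of the negative controls also gave 5 of 10, against 79.0% of all genes. In RNA from a whole culture, a gene read from few cells and a gene read at a low level in every cell cannot be told apart.

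**Figure D1:**
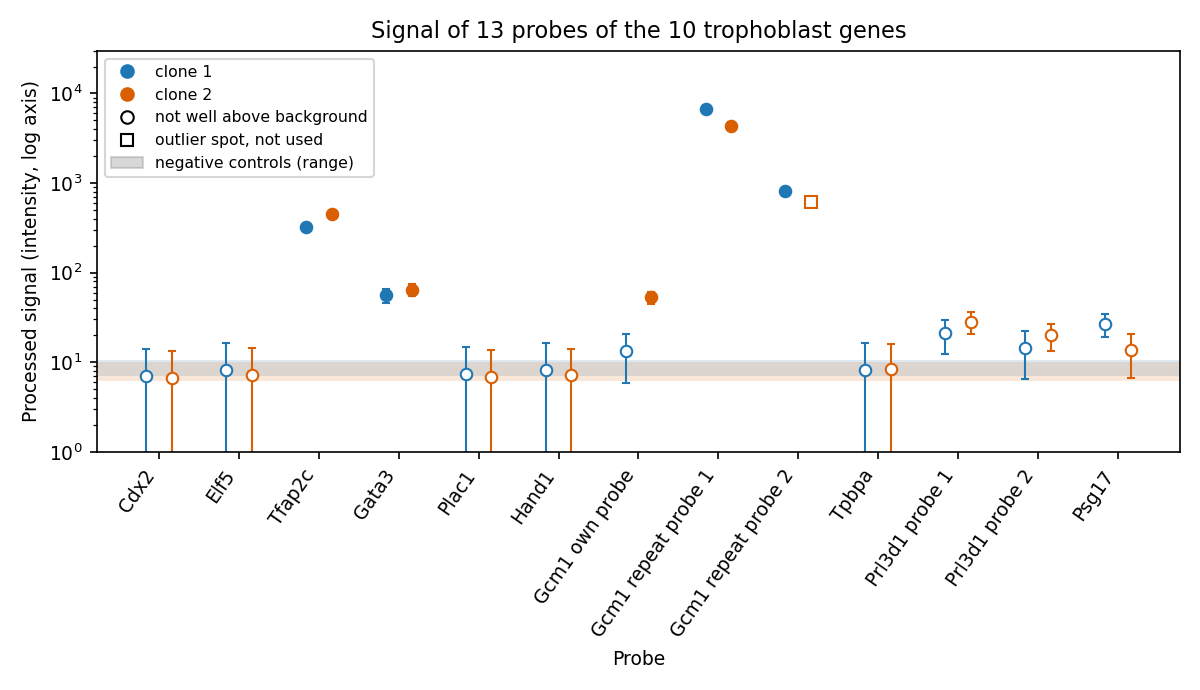
Processed signal (intensity, log axis) of 13 of the 14 probes in clone 1 (blue) and clone 2 (orange), 1 spot per array. Bars are the software's error of the spot and run off the lower edge where the error is about as large as the signal, open circles were not well above background, the open square was flagged as an outlier, and the bands span the negative control spots. Tfap2c, Gata3 and the Gcm1 repeat probes stand above the bands in both clones, and Cdx2, Elf5, Plac1, Hand1 and Tpbpa lie within them.

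The upstream factors of the trophectoderm split into a detected and an undetected pair. The probes of Tfap2c and Gata3, detected in both clones, and of Cdx2, read at the floor, are shown because the count turns on them. They are written 5′ to 3′ as on the array, with pyrimidines (C and T) in capitals so that their mixed composition can be set against the Gcm1 probes further on. Positions are on mm9 per the file headers. No mm9 annotation was used here, so exon or UTR positions are not stated.
Tfap2c, chr2:172383860-172383919, plus strand: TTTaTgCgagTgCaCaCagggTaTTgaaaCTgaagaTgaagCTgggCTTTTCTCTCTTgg
Gata3, chr2:9779551-9779610, minus strand: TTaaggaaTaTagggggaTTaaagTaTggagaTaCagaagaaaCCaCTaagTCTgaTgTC
Cdx2, chr5:148112547-148112606, minus strand: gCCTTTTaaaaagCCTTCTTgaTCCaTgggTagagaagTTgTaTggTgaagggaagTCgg

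Tfap2c, an AP-2 family transcription factor of the trophectoderm and of trophoblast stem cells, had a processed signal of 322 ± 33.0 (software's error) in clone 1 and 446 ± 45.1 in clone 2. These signals are 40.5 and 62.7 times the median of the negative controls. Its level was -1.35 log2 in clone 1 and -0.70 in clone 2, a difference of 0.64 (error 0.21 from the spots' errors), or 1.56-fold higher in clone 2. The difference was larger than that spot error, which does not include the spread between cultures. Among all 13928 genes measured on both arrays, 802 (5.76%) had a 1.5-fold or larger excess in clone 2.

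Gata3, a GATA factor that acts beside Cdx2 in the trophectoderm, was dim. Its signal was 55.9 ± 9.69 in clone 1 and 64.6 ± 10 in clone 2, which is 7.02 and 9.08 times the negative control median. The level rose above the detection limit on both arrays (-3.87 and -3.49 log2), and the difference of 0.38 (1.3-fold higher in clone 2) was about as large as its spot error of 0.34. The clones cannot be ordered for Gata3 from these spots.

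Cdx2, a caudal-type homeobox factor needed for the trophectoderm, read 7.05 ± 7.02 in clone 1 and 6.7 ± 6.67 in clone 2. Elf5, an ETS factor that holds trophoblast stem cells in their state, read 8.22 ± 8.18 and 7.28 ± 7.27 with a probe at chr2:103290958-103291017. All 4 values are stand-ins within the range of the negative controls, so neither gene was detectable in either clone at the sensitivity of these arrays. Each gene rests on 1 probe, and no sample known to express it was among the arrays to show that the probe works.

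Gcm1, the factor that commits precursors to syncytiotrophoblast, was the gene whose probes disagreed. Its purine-repeat probes gave high signals, while the probe placed at the gene read below Gata3 in both clones. Of its 4 probes, 3 are shown because they differ in kind. Pyrimidines are again in capitals.
Gcm1 own probe, chr9:77912984-77913043, plus strand: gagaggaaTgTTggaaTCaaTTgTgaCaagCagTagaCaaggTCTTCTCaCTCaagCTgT
Gcm1 repeat probe 1, chr7:123731567-123731626, minus strand: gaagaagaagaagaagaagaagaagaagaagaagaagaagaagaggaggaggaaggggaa
Gcm1 repeat probe 2, chr7:68290936-68290995, plus strand: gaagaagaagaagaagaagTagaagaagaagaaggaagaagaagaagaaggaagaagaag
The own probe holds 25 pyrimidines in its 60 bases. Repeat probes 1 and 2 are mostly runs of GAA units, with 0 and 1 pyrimidine. Both are placed on chromosome 7, while RefSeq puts Gcm1 on chromosome 9. The entry of repeat probe 2 also lists accessions of Nhlh2, Pigr and Rhox8, genes unrelated to Gcm1 by name.

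The repeat probes were bright in both clones. Repeat probe 1 read 6730 ± 673 in clone 1 and 4350 ± 435 in clone 2, a difference of -0.46 log2 (1.37-fold higher in clone 1). Repeat probe 2 read 806 ± 81.1 in clone 1, and its spot of 609 ± 61.4 in clone 2 was flagged as an outlier and gave no value. Gene by gene, 462 of 13928 measured genes (3.32%) had a 1.5-fold or larger excess in clone 1, and 145 (1.04%) an excess of 2-fold or more. The 1.37-fold of repeat probe 1 reached neither of these limits.

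Most probes of this composition were detected, also those named for other genes. With at most 1 pyrimidine in 60 bases there were 31 of 39429 probes, carrying 26 gene names. Of the 24 with a value on both arrays 20 were detected on both (83.3%), against 54.7% of all probes, and without those of Gcm1 it was 18 of 22. Of the 20 detected, 13 were lower in clone 2, and the median of the 20 differences was -0.32 log2. Which transcripts bind these probes was not tested, so their signals are given here as repeat signals and not as Gcm1 levels.

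The own probe of Gcm1 read 13.4 ± 7.52 in clone 1 and 52.8 ± 8.42 in clone 2. In clone 1 it was not well above background, though positive and significant and above all 141 negative control spots; in clone 2 it was detected, at 7.42 times the negative control median. The levels were -5.93 and -3.78 log2, a measured difference of 2.15 (spot error 0.84). Against the lowest level detected on the array of clone 1, -4.54, the own probe was at least 1.7-fold higher in clone 2. Of 39272 probes with a value on both arrays, 1070 (2.72%) were detected in clone 2 only, and 435 of these 1070 (40.7%) had a bound of at least 1.5-fold. None of the 3 measured neighbours of this spot on the slide differed by 2-fold between arrays. The brightest of the 6 nearest spots, control and unmeasured spots included, read 253000 in clone 1 and 279000 in clone 2. The part of such a bright spot in the dim signal of the own probe was not tested. The own probe and repeat probe 1 thus differed between the clones in opposite directions.

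Hand1 and Plac1, a giant cell factor and an X-linked placental gene, were at the floor. Hand1, a basic helix-loop-helix factor, read 8.21 ± 8.2 in clone 1, a stand-in, and 7.29 ± 6.8 in clone 2 with a probe at chr11:57642342-57642401. The looser flag passed the spot of clone 2, although its signal lay within the range of the negative controls. Plac1, which encodes a protein of trophoblast cell membranes, read 7.46 ± 7.46 and 6.88 ± 6.88 at chrX:50423233-50423292, both stand-ins. Neither gene was well above background in either clone.

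The markers of the junctional zone and of giant cells fell into a floor value and a set of dim values. Tpbpa, which encodes a secreted protein typical of the spongiotrophoblast, read 8.29 ± 8.25 (a stand-in) in clone 1 and 8.31 ± 7.67 in clone 2 at chr13:61040246-61040305. Again the looser flag passed the spot of clone 2 alone, and both signals were within the range of the negative controls.

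Prl3d1, placental lactogen I, has a pair of probes on chromosome 13, at chr13:27192036-27192095 and chr13:27186062-27186121. Probe 1 read 21.1 ± 8.86 in clone 1 and 28.4 ± 7.56 in clone 2, and probe 2 read 14.4 ± 7.84 and 20 ± 6.75. Both probes were higher in clone 2, by 0.60 and 0.65 log2, less than their spot errors of 0.72 and 0.93. Psg17, a member of the immunoglobulin-like glycoproteins of the placenta, read 26.8 ± 7.77 in clone 1 and 13.6 ± 6.94 in clone 2 at chr7:19399337-19399396. Its difference of -0.81 log2 was likewise within its spot error of 0.85. These 6 signals were above every negative control spot of their array and passed the looser flag, but were not well above background. No fold is given where neither array detected the probe. A further probe, named for Prl3d2, has an entry that also lists Prl3d1 and Prl3d3. It is given after its values were seen, and read 8.27 in clone 1 and 7.26 in clone 2, within the range of the negative controls.

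Larger sets of genes of each trophoblast compartment give these values a setting. Of 12 further factors of the trophectoderm and trophoblast stem cells, 10 (83.3%) were detected in both clones and 12 by the looser flag. Over all genes the shares were 61.3%, and 80.0% by the looser flag. Most of these factors also act in pluripotent cells. Eomes, a T-box factor of both trophectoderm and primitive streak, was detected at -2.35 log2 in clone 1 and -2.38 in clone 2. Tead4, which acts upstream of Cdx2, was not detected (-5.19 and -4.64). No factor of this list was 2-fold apart. Of the 10, 4 were higher in clone 2, against 56.9% of all 13928 measured genes. The median difference was -0.01, against 0.05 over all measured genes.

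Of 12 genes of the syncytiotrophoblast and labyrinth, 7 (58.3%) were detected in both clones, against 61.3% of all genes. By the looser flag 11 were, against 80.0% of all genes. Syna, a retrovirus-derived fusion protein of the first syncytial layer, was not detected. Synb, its counterpart in the other layer, was detected in clone 2 only, with a bound of 1.3-fold. Of all probes with a value on both arrays, 2.72% were detected in clone 2 only. Phlda2, an imprinted gene that restrains placental growth, read 489 in clone 1 and 1340 in clone 2. This is a 3.1-fold excess in clone 2 (-0.74 and 0.89 log2), and Phlda2 was the 1 gene of the list at least 2-fold apart. An excess of 2-fold or more in clone 2 was seen in 211 of 13928 genes (1.51%). The median difference of the 7 was 0.15.

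Genes of giant cells, spongiotrophoblast and glycogen cells were mostly not detected, with 2 of 12 (16.7%) detected in both clones and 6 by the looser flag. The shares over all genes were 61.3% and 80.0%. The 2 were Flt1, a VEGF receptor, and Mmp9, a matrix metalloprotease, both also expressed outside the trophoblast and named after their values were seen. Ctsq, a placental cathepsin, and Tpbpb, the paralog of Tpbpa, were not detected in either clone.

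In the families of the secreted markers, most relatives of Prl3d1 and Psg17 were undetected as well. Of 22 genes of the placental prolactin family, Prl3d1 included, 3 (13.6%) were detected in both clones, against 61.3% of all genes. By the looser flag 10 were, against 80.0% of all genes. Prl2a1 and Prl2b1 were not detected. The 3 are named after their values were seen. Prl2c1 read 2410 in clone 1 and 2490 in clone 2. Prl2c5, a proliferin, read 142 and 106 with a probe whose entry also lists Prl2c2 and Prl2c3, so its signal cannot be assigned to 1 of these near-identical genes. A dimmer probe of Prl2c5, whose entry also lists Prl2c1, read 67.1 and 37.1 and was detected in clone 1 only. Prl3b1, placental lactogen II, read 84.6 and 51.2, a difference of -0.55 log2.

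Of 14 pregnancy-specific glycoprotein genes, Psg17 included, 1 (7.14%) was detected in both clones, against 61.3% of all genes. By the looser flag 9 were, against 80.0% of all genes. Psg-ps1 and Psg16 were not detected. The gene detected in both, again named after its values were seen, was Psg23, which read 1470 in clone 1 and 1600 in clone 2, a difference of 0.29 log2. Most members of both families were thus not detected, and the few that were did not differ by 2-fold between the clones. The family's members resemble each other in sequence, and cross-binding between them was not tested.

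Relatives of the marker transcription factors were read by the same rules. Among 23 genes of the Cdx, Elf, AP-2, Gata, Hand and Gcm families, the 6 marker genes included, 9 (39.1%) were detected in both clones. The share over all genes was 61.3%. The 9 count the markers Tfap2c and Gata3, and Gcm1 by its brightest repeat probe. Cdx1 was not detected, like Cdx2 (-4.65 and -4.81 log2). The relatives named next were picked after their values were seen. In the ETS family Elf1, Elf2, Elf3 and Elf4 were detected in both clones while Elf5 was at the floor. Among GATA factors Gata5 was detected beside Gata3, at -0.39 and -0.32 log2, and Gata6 was detected in clone 2 only, with a bound of 1.32-fold. Of all probes with a value on both arrays, 2.72% were detected in clone 2 only.

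**Figure D2:**
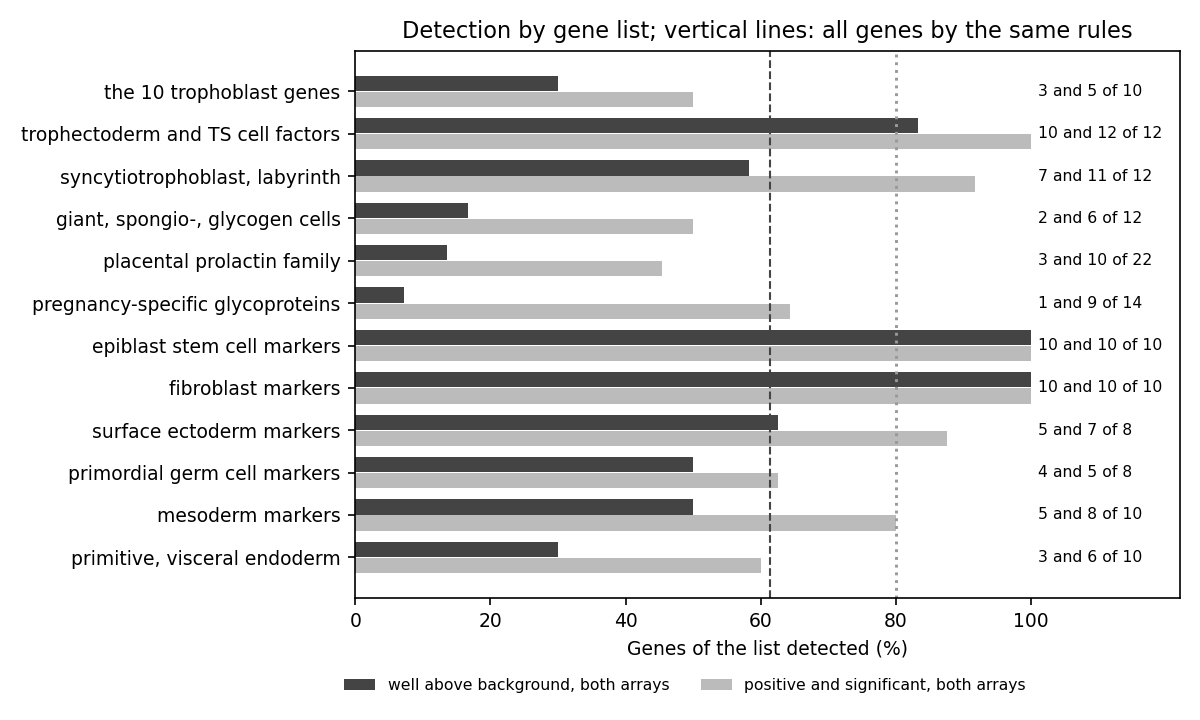
Percentage of the genes of each list detected on both arrays by the well above background flag (dark bars) and by the looser positive and significant flag (light bars), with the counts at the right. The vertical lines give the same shares over all genes, 61.3% (dashed) and 80.0% (dotted). The trophoblast genes, the giant cell list, both secreted families, and the germ cell and endoderm markers lie below these lines. The dark bars of the mesoderm markers and of the syncytiotrophoblast and labyrinth list also end below the dashed line. The trophectoderm and stem cell factors and the EpiSC, fibroblast and surface ectoderm markers lie above both lines.

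Markers of other cell types were read on the same arrays. All 10 EpiSC markers were detected in both clones, against 61.3% of all genes. Among them were Pou5f1 (2.87 and 2.51 log2) and Nanog (4.43 and 4.27). Of the 10, 7 were higher in clone 2, against 56.9% of all measured genes. The tight junction gene Cldn6, 1 of the 7, was 2-fold apart (2.12-fold higher in clone 2). All 10 fibroblast markers, Col1a2 and Col3a1 among them, were also detected, 8 of them higher in clone 2, against the same 56.9%. Their summed signal was 156 times the 75th percentile in clone 1 and 173 times in clone 2, and none was 2-fold apart. What part fibroblasts have in the signals of Tfap2c, Gata3 or the trophoblast lists was not tested.

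Of 8 surface ectoderm markers 5 (62.5%) were detected in both clones, against 61.3% of all genes. Of the 5, 4 were higher in clone 2, against 56.9% of all measured genes, and the median difference was 0.93 log2. The summed signal of the 8 markers was 36.8 times the 75th percentile in clone 1 and 82.6 times in clone 2. Most of this sum came from Krt18 (4.94 and 6.11 log2) and Krt8 (2.02 and 3.32 log2). Krt8 and Krt18, the keratin pair of simple epithelia and of trophectoderm, were 2.46-fold and 2.26-fold higher in clone 2. A dimmer probe of Krt8 differed by 0.54 log2. Krt5, a keratin of basal cells, passed detection in clone 2 alone, at least 2.13-fold above clone 1. Krt14 was detected in clone 1 only, with a bound of 1.33-fold. The part of surface ectoderm in the Tfap2c and Gata3 signals was not tested.

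The lists for the other sites of Tfap2c and Hand1 expression differed among themselves. Over all genes 61.3% were detected in both clones, and 56.9% of measured genes were higher in clone 2. Of 8 primordial germ cell markers 4 were detected in both clones, 2 of them higher in clone 2 (median difference -0.00), with a summed signal of 1.24 times the 75th percentile in clone 1 and 1.11 times in clone 2. Prdm1, which specifies germ cells, was detected in both and 1.81-fold higher in clone 2, while Prdm14 was not detected in either clone. The others are named after their values were seen. Nanos3, Dnd1 and Kit were detected in both clones, Ddx4 in clone 1 only, and Dppa3 and Dazl in neither. Of 10 mesoderm markers 5 were detected in both clones, 4 of them higher in clone 2 (median difference 0.41), with summed signals of 2.68 and 4.31. T (Brachyury) and Mixl1 were not detected. Tbx4, Msx1, Msx2, Kdr and Pitx1, named after their values were seen, were the 5 detected in both. Of 10 primitive and visceral endoderm markers 3 were detected in both clones, 1 of them higher in clone 2, with summed signals of 1.32 and 1.28. Gata6 was detected in clone 2 only and Gata4 in neither clone. The 3 detected in both, named after their values were seen, were Sox7, Pdgfra and Dab2. Whether such cells were present in the cultures was not tested.

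By their brightest probes, none of the trophoblast genes detected on both arrays was 2-fold apart between the clones, against 356 of 13928 measured genes (2.56%). The 3 measured genes had differences of 0.64 for Tfap2c, 0.38 for Gata3 and -0.46 for Gcm1 by its brightest repeat probe, with a median of 0.38. With Gcm1 read by its own probe, which gives no fold, 2 genes were left and their median was 0.51. Over all measured genes the median was 0.05 with an SD of 0.40 log2, and 56.9% of genes had a higher value in clone 2. With so few members measured, these medians describe single probes and not the lineage.

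**Figure D3:**
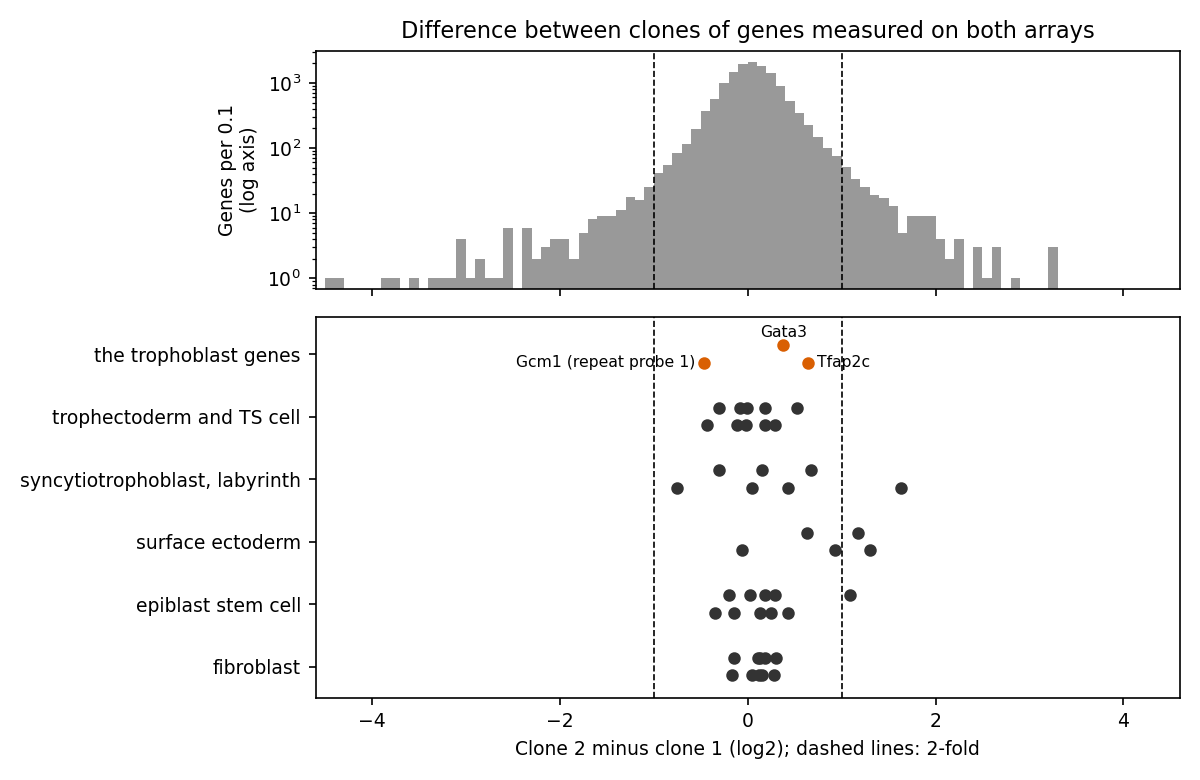
Upper panel, number of genes (log axis) per 0.1 log2 of the difference clone 2 minus clone 1 among 13928 genes measured on both arrays; lower panel, the same difference for the measured genes of 6 lists, 1 point per gene. Dashed lines mark 2-fold. The 3 trophoblast genes (orange) lie between -0.46 and 0.64, inside these lines, and Phlda2, Krt8, Krt18 and Cldn6 lie to their right. Gcm1 is plotted by its repeat probe 1. Its own probe, not well above background in clone 1, is not shown.

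The differences were recomputed under the 5 alternatives that can change a single probe. Tfap2c was higher in clone 2 by 0.53 to 0.72 log2 under these. Gata3 gave 0.31 to 0.40 under 4 of them and 0.63 under normexp background correction. In the authors' deposited table Tfap2c read 284 and 463, Gata3 50.9 and 66.8, and the own probe of Gcm1 14.1 and 54.3. The measured difference of the own probe was between 1.96 and 2.16 log2 under 5 of 6 ways of processing, and 1.07 under normexp background correction. Gcm1 as a gene was lower in clone 2 by its brightest probe (-0.46) and higher by the mean of its probes (0.29), so its direction depended on how the probes were combined.

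**Figure D4:**
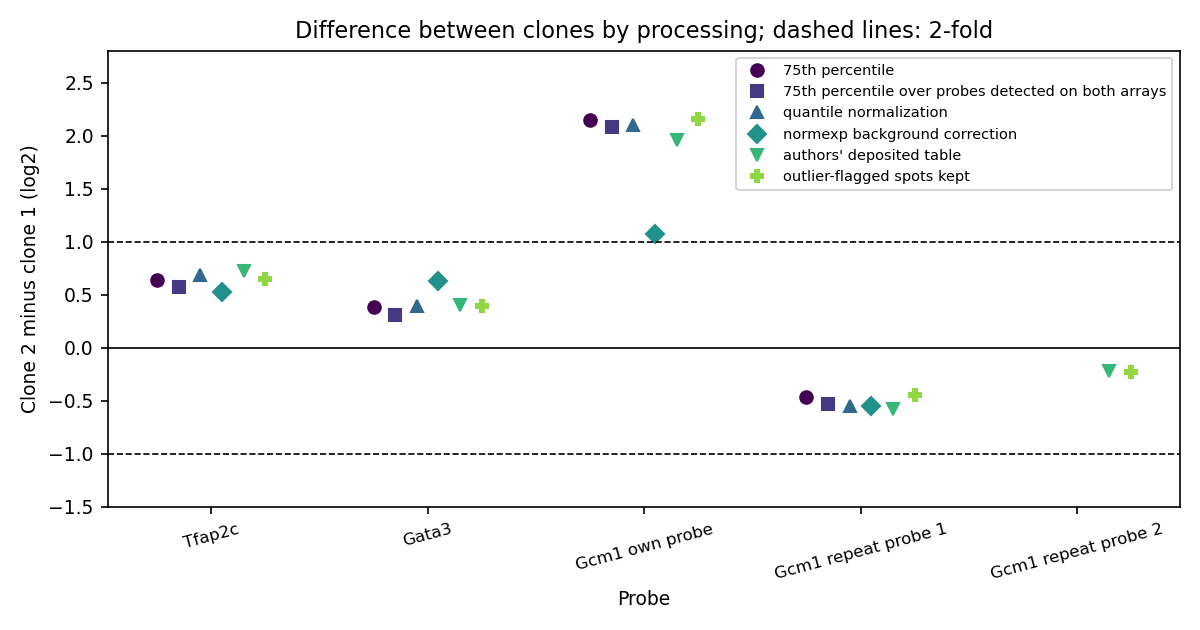
Difference clone 2 minus clone 1 (log2) of the Tfap2c, Gata3 and Gcm1 probes under 6 ways of processing, 1 symbol for each; dashed lines mark 2-fold. Tfap2c and Gata3 are above 0 and Gcm1 repeat probe 1 below 0 under each way shown, and the own probe of Gcm1 is above 2-fold, lowest under normexp (1.07). Repeat probe 2 has a value only where its outlier spot is kept or in the authors' table.

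The promoters of these genes differ in CG dinucleotides, the sites of DNA methylation, and this was set beside detection. In RefSeq promoters of GRCm38.p6, 300 bases from 250 before to 50 after the start, 8 of the 10 genes matched, all but Tfap2c and Hand1. The letters CG, which read the same on both strands, occur in 94.6% of all 32851 promoters, with a median of 7 per promoter. Gata3 had 22 and Cdx2 18. Elf5 had 3 and 10 in its pair of promoters, and Plac1 had 3 and 6. Gcm1 had 1, Tpbpa 2, Prl3d1 3 and Psg17 3. The promoter of Gata3, detected in both clones, and the first promoter of Elf5, at the floor, are shown as a CG-rich and a CG-poor example, with CG in capitals.
Gata3, chr2:9878551-9878850, minus strand: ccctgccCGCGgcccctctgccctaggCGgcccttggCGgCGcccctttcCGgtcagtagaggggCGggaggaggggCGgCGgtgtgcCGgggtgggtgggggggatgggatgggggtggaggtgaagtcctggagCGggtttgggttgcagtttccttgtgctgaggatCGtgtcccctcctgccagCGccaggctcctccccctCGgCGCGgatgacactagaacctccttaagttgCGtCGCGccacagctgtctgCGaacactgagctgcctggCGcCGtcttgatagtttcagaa
Elf5, chr2:103411848-103412147, plus strand: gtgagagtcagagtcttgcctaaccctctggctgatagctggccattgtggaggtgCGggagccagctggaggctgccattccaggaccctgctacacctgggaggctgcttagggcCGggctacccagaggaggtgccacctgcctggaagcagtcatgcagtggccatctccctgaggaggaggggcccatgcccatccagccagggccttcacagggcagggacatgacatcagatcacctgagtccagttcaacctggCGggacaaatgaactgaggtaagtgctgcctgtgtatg
By its most CG-rich promoter, a gene with 0 to 5 CG was detected in both clones in 22.2% of cases (1104 of 4967 genes), one with 6 to 15 in 58.9% (2259 of 3835) and one with 16 or more in 85.7% (7349 of 8580). Tpbpa, Prl3d1 and Psg17 fell in the lowest class and were not detected. Gcm1 was in this class too and was detected in clone 2 by its own probe. Gata3, in the highest class, was detected in both clones. Cdx2, with 18, was in the class where most genes were detected and was not. Elf5 and Plac1 were in the middle class. These counts describe the sequence alone, and no methylation was measured on these arrays.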

How the data were processed

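Total RNA of 2 EpiSC clones was read on 1 one-colour Agilent array each (design 026655), on the same slide and scan. The deposited scanner files hold the processed signal intensity of each spot, already corrected for background and not normalized between arrays, as the file headers state (software Feature Extraction, version 11.0.1.1, protocol GE1_1100_Jul11). The table deposited by the authors holds normalized intensities on a linear scale. The sources used here do not give its normalization, and it served as an alternative (column medians 65.8 and 65.9).

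Of 43020 spots that are no controls, 277 and 246 flagged outliers were left out. Log2 signals were averaged per probe and the 75th percentile was subtracted. One probe of Gcm1 is not reported here. A gene takes the level of its brightest probe, named through RefSeq of GRCm38.p6, while its detection counts any of its probes. A fold was given where both arrays detected the probe, and a lower bound where 1 did, set against that array's lowest detected level or, where higher, the undetected spot's own level. The number of arrays limits the precision. The analysis used Python 3.11.15, pandas 2.3.3 and limma 3.58.1 (normexp).

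The genes and lists were chosen with earlier results of these data known. The text names all 10 genes, list genes at least 2-fold apart or with such a bound, the first 2 genes of a list, and others marked as named after their values were seen. On simulated data, 100 of 100 raised and 100 of 100 lowered genes at 3-fold were recovered for clone 2 against clone 1. There were 0 false calls over 14497 genes. Both simulated arrays were copies of the array of clone 1 with added noise, and its detection flags were kept. Changed genes were drawn only from measured genes with 1 probe and a level above -2. The simulation therefore checks the scaling and counting, and cannot show recovery for dimmer genes such as Gata3 or for undetected ones.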

Additional observations from a re-analysis of the deposited data

How the results depend on the processing

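The comparison rests on 2 arrays, and dim signals limit it: probes printed 10 times and not detected had a median SD of 0.28 log2 in clone 1 and 0.34 in clone 2. No paired analysis was possible because each clone has 1 array. Of 10 alternatives, 9 were planned and 1, reading Gcm1 by its own probe alone, was added after seeing the data. The count of trophoblast genes detected on both arrays was 3, and 5 with the positive and significant flag and 5 with the negative control limit. The count of probes was 4, against 8 and 8 under those rules and 2 with Gcm1 read by its own probe, since fewer probes were then counted. The count of all genes at least 2-fold apart was 356, against 974 with the looser flag, 889 with the negative control limit, where more dim genes were counted, and 204 with normexp, for which the cause was not tested. No trophoblast gene was counted as 2-fold apart under the 10 alternatives. The own probe of Gcm1 (2.15) passed both looser rules on both arrays. It could not enter that count under them, since Gcm1 was read there by a brighter probe. With Gcm1 read by its own probe alone, it was not counted because that probe was not well above background in clone 1. The median difference ranged from 0.31 to 0.53 log2. Under both looser rules Prl3d1 (0.60) and Psg17 (-0.81) entered the measured genes. Gcm1 was higher in clone 2 with the mean of all its probes (0.29).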
